A study of Mus musculus with 6 samples.

Results

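Foxp3 and 9 genes that lie near it on the mouse X chromosome were followed in stimulated regulatory T cells (Tregs) from wild-type mice and from mice labelled as lacking the transcription factor BACH2 conditionally. The 10 genes are Foxp3, Ppp1r3f, Ppp1r3fos, Ccdc22, Cacna1f, Syp, Prickle3, Plp2, Hdac6 and Gata1, out of 49585 genes in the deposited table. They were picked by position, between about 7.5 and 8.0 Mb of the chromosome, and also because several of them were seen to be lower in the libraries labelled Bach2-cKO while Foxp3 was not. Their values between the groups are therefore given as a description, without a test. The 10 genes span 420.8 kb, and the 7.5 to 8.0 Mb window holds 38 genes of the table, of which 9 are listed at 0 in all libraries.

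Poly(A) RNA was measured in 6 libraries from spleen cells of C57BL/6 mice aged 7 weeks. CD4+ YFP+ B220- cells, which the series' design text also calls CD25+, were sorted and then stimulated for 24 hours with antibodies against CD3 and CD28 bound to the plate. The 3 WT libraries came from mice labelled wild type, and the 3 others from mice labelled as a conditional knockout of Bach2. Which gene carries YFP, what drives the deletion and in which cells BACH2 is lost are not stated in the labels. They also leave unsaid whether the Foxp3 locus itself carries a reporter. Nor do they tie each library to a mouse of its own, and the p-values below therefore speak only of the spread among these 6 libraries, which may be technical.

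FOXP3 is the forkhead transcription factor that defines Tregs, and its gene sits on the X chromosome among genes of unrelated function. Its transcription depends on a promoter and on conserved noncoding enhancers before and within the gene, which are bound by factors such as NFAT, STAT5, RUNX, CREB and ETS proteins. The long noncoding RNA Flicr, which is made from the gene the table calls Ppp1r3fos, runs into the 5′ part of Foxp3 from upstream and is known as a modulator of Foxp3 in cis. Of the other neighbours, GATA1 is the zinc finger factor of erythroid cells, megakaryocytes and mast cells, and synaptophysin (Syp) is a membrane protein of synaptic vesicles.

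The starts of Foxp3 and of the 4 neighbours with the most negative changes between the groups are shown so that the promoters can be set side by side. They are RefSeq windows on GRCm38.p6 from 250 bases before to 50 bases after a start, 5′ to 3′ on the strand of the gene, and 9 of the 10 genes had an entry. Capitals mark matches on either strand to the TATA box letters TATAAA or to the GC box letters GGGCGG.
Foxp3, chrX:7579426-7579725, plus strand: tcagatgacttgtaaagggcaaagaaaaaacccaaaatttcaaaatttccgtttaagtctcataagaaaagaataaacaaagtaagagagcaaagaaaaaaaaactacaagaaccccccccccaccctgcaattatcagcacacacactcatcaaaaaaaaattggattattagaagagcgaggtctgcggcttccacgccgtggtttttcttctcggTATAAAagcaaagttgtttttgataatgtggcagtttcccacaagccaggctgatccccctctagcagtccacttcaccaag
Ppp1r3fos (RefSeq Flicr), chrX:7573350-7573649, plus strand: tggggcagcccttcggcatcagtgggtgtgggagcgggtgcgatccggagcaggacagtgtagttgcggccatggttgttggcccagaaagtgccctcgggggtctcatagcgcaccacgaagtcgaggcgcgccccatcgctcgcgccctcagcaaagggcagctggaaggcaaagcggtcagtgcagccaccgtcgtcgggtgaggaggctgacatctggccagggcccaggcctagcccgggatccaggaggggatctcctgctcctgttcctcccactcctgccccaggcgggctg
Ppp1r3f, chrX:7574232-7574531, minus strand: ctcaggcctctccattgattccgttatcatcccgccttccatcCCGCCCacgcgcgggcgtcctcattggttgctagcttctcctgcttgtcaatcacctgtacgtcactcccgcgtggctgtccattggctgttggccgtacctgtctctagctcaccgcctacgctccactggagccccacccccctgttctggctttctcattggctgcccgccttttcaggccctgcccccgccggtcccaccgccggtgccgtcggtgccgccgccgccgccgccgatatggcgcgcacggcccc
Syp, chrX:7638330-7638629, plus strand: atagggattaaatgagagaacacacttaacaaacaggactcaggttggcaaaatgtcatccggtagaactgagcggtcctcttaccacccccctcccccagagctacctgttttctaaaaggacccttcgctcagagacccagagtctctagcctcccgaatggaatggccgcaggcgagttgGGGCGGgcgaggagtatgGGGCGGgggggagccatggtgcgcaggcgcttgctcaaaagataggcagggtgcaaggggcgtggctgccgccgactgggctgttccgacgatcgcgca
Gata1, chrX:7967861-7968160, minus strand: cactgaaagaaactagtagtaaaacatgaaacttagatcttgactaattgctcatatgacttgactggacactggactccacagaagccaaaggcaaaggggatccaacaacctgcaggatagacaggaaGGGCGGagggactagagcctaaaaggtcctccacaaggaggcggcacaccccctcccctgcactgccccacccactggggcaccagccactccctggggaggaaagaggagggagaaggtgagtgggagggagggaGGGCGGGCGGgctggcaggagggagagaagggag
The Foxp3 window holds 1 TATAAA, 32 bases before the start, and is AT-rich with a GC content of 40.7%. The windows of Ppp1r3fos and Ppp1r3f, which start from opposite strands less than 1 kb apart, have 67.3% and 66.7% GC and 20 and 29 CpG dinucleotides. Syp has 59.0% GC, 18 CpG and 2 GC boxes, and Gata1 has 57.3% GC, 4 CpG and 3 GC box matches, of which the last pair overlap. The median over all 32851 RefSeq windows of this length was 52.7% GC and 7 CpG. Letters that were searched but not found in any of the 10 windows of these genes are TGAGTCA, the core shared by AP-1 and BACH2 sites, and TGTTTAC, a forkhead motif, which 5.2% and 3.6% of all windows hold. TATAAA is in 13.6% of all windows and GGGCGG in 35.7%. The RUNX letters TGTGGT (16.8% of all windows) were found once, in Hdac6, and the GATA letters AGATAA (11.2%) once, in a further Foxp3 window at a later start. A match is a description of the letters and not of a bound site.

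Levels are given as FPKM, which divides a gene's fragments by its length and by the library's total, as the authors deposited them. Whole reads could be recovered from these values. The totals that the FPKM imply were 27697735 to 43884431 reads a library. Of these, 99.92% to 99.93% were recovered as reads of genes, so reads outside genes are not in the totals. A gene was tested between the groups if it reached 1 FPKM in at least 3 libraries, which 13766 genes did. Of the 10 genes, 8 passed this filter, and Ccdc22 and Cacna1f did not. A change is the difference on the log2(FPKM + 1) scale, Bach2-cKO minus WT, with its standard error (SE) from limma. This scale understates the change of weakly expressed genes. Bach2 itself read 112.0, 111.4 and 99.4 FPKM in the WT libraries and 88.9, 104.5 and 120.8 FPKM in the others. As this value sums all exons and the labels do not name the deleted part, it does not check the genotype.

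Foxp3 (ENSMUSG00000039521, chromosome X, 7579676 to 7595243, plus strand, GRCm38) was among the abundant messages of every library. Its level was 127.3, 107.6 and 113.2 FPKM in WT replicates 1, 2 and 3, and 111.8, 104.2 and 153.5 FPKM in Bach2-cKO replicates 1, 2 and 3. The groups overlapped, and the highest value of all was that of Bach2-cKO replicate 3. Group means were 116.0 ± 10.1 for WT and 123.2 ± 26.5 FPKM for Bach2-cKO (SD, n = 3 each), with a change of 0.07 (SE 0.14). In WT, 92.4% of the tested genes lay below Foxp3. These values rest on 11475 to 20701 reads a library. In bulk RNA, fewer cells of a type and less RNA per cell cannot be told apart, for Foxp3 as for each gene below.

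Upstream of Foxp3 and antisense to Ppp1r3f lies Ppp1r3fos (ENSMUSG00000039545, 7573600 to 7581015, plus strand), the source of Flicr. Its level was 13.6, 10.4 and 14.6 FPKM in WT, and 3.16, 2.95 and 3.67 FPKM in Bach2-cKO. All WT values were above all Bach2-cKO values, with means of 12.9 ± 2.18 and 3.26 ± 0.373 FPKM (SD, n = 3 each), or 25.4% of WT. The change was -1.69 (SE 0.14), at rank 38 from the most negative among the 13766 genes. The reads behind these values numbered 612, 331 and 416 in WT and 90, 97 and 105 in Bach2-cKO. By the deposited positions, the 3′ end of Ppp1r3fos overlaps the start of Foxp3 on the same strand. In GENCODE M21 Foxp3 starts at 7573644, near the start of Ppp1r3fos. By that model 853 of the 3583 exon bases of Ppp1r3fos are also exon bases of Foxp3, not all of them necessarily at the 3′ end. Foxp3 had far more reads, and its level did not follow that of Ppp1r3fos between the groups. As both lie on the plus strand, their reads in the shared bases cannot be told apart by strand.

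Ppp1r3f (ENSMUSG00000039556, 7557296 to 7574283, minus strand) encodes a glycogen-targeting subunit of protein phosphatase 1 and by the deposited positions its gene body lies 5.4 kb upstream of Foxp3. In GENCODE M21 there is no such gap, since Foxp3 starts there at 7573644, within Ppp1r3f. It read 6.02, 4.74 and 4.62 FPKM in WT, and 2.60, 2.88 and 2.72 FPKM in Bach2-cKO. The groups did not overlap, and the Bach2-cKO mean was 53.3% of the WT mean (2.73 ± 0.143 against 5.13 ± 0.775 FPKM, SD, n = 3 each), a change of -0.71 (SE 0.13). This placed it at rank 493 from the most negative. Of its 5153 exon bases, 2725 (52.9%) are shared with other genes, 2415 of them with the predicted gene Gm36995, which had 4 to 15 reads in any library, 310 with Ppp1r3fos and, by the longer M21 model, 266 with Foxp3, both on the opposite strand. Foxp3 is the abundant one of these, with 11475 to 20701 reads against 139 to 510 for Ppp1r3f. The use of strand in counting is not stated. If none was used, reads of Ppp1r3f in the shared bases and those of Ppp1r3fos or Foxp3 cannot be told apart.

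Downstream, Ccdc22 (ENSMUSG00000031143, 7593809 to 7605517, minus strand), whose product belongs to a complex for endosomal recycling of membrane proteins, is listed at 0 in all 6 libraries. Of its 3427 exon bases, 3174 (92.6%) also belong to exons of other genes, 2957 to Gm36995 and 590 to Foxp3, and 253 are its own. In the table, 165 of 221 protein-coding genes with at least 90% of their exon bases shared were at 0 in all 6 libraries (74.7%). Among protein-coding genes that share none, 3775 of 15295 were (24.7%). The sources used here do not state how reads that fall in several genes were counted, so the 0 of Ccdc22 is only what the table lists and no measure of its expression.

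**Figure D1:**
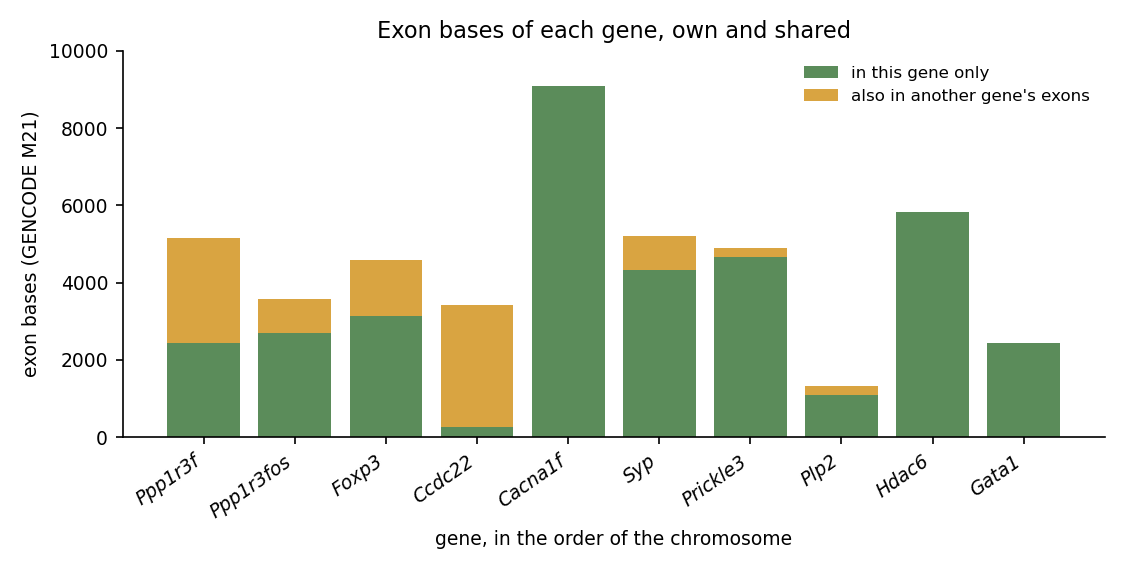
Exon bases of each gene in GENCODE M21, stacked by whether a base lies in this gene only (green) or also in exons of another gene (orange), with the genes in chromosomal order. Ccdc22 keeps 253 of 3427 bases for itself, while Cacna1f, Hdac6 and Gata1 share none.

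Cacna1f (ENSMUSG00000031142, 7607083 to 7635196, plus strand), the pore subunit of a voltage-gated calcium channel best known from the retina, was near the limit of detection. It read 0.164, 0.172 and 0.181 FPKM in WT, and 0.0905, 0.0588 and 0.0451 FPKM in Bach2-cKO. These are 23, 17 and 16 reads against 8, 6 and 4 reads, and the groups did not overlap. WT averaged 0.173 ± 0.00839 and Bach2-cKO 0.0648 ± 0.0233 FPKM (SD, n = 3 each), 2.66-fold apart, on so few reads that the size of the difference is imprecise.

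Syp (ENSMUSG00000031144, 7638471 to 7653256, plus strand) lies 43.2 kb beyond Foxp3. It read 12.7, 13 and 21.3 FPKM in WT, and 2.22, 2.32 and 2.73 FPKM in Bach2-cKO. WT replicate 3 stood above the other WT libraries, and the lowest WT value was still above the highest Bach2-cKO value. WT averaged 15.7 ± 4.93 FPKM and Bach2-cKO 2.42 ± 0.268 FPKM (SD, n = 3 each), or 15.5% of WT, a change of -2.25 (SE 0.20) at rank 13 from the most negative. The SD was 31.5% of the WT mean, the widest relative spread in WT of the 9 genes with a value. The reads numbered 667, 481 and 710 against 74, 89 and 91. Syp shares 875 of its 5211 exon bases with the predicted gene Gm14703, which itself had 2 to 15 reads in any library.

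Prickle3 and Plp2, the next genes along the chromosome, did not show a difference of this size. Prickle3 (ENSMUSG00000031145, 7657260 to 7668186, plus strand), of the planar cell polarity family, read 19.7, 20.3 and 21.3 FPKM in WT, and 17.5, 17.4 and 19.4 FPKM in Bach2-cKO. The closest values of the groups, 19.7 and 19.4 FPKM, were nearly equal, and the Bach2-cKO mean was 88.5% of WT (18.1 ± 1.11 against 20.4 ± 0.813 FPKM, SD, n = 3 each), a change of -0.17 (SE 0.076). Plp2 (ENSMUSG00000031146, 7667941 to 7671390, minus strand), a proteolipid of membranes, read 82.8, 89.6 and 98.7 FPKM in WT, and 98.4, 89.1 and 91.2 FPKM in Bach2-cKO. The groups overlapped, with means of 90.3 ± 7.99 and 92.9 ± 4.86 FPKM (SD, n = 3 each) and a change of 0.04 (SE 0.078). The last exons of Prickle3 and Plp2 overlap from opposite strands by 246 bases.

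At the far end of the window lie Hdac6 and Gata1, with the pseudogene Psmb6-ps, listed at 0 throughout, between them. Hdac6 (ENSMUSG00000031161, 7930120 to 7947889, minus strand), a cytoplasmic deacetylase of tubulin, read 18.3, 19.0 and 18.0 FPKM in WT, and 16.2, 15.0 and 15.7 FPKM in Bach2-cKO. The groups did not overlap, but the Bach2-cKO mean was 84.8% of WT (15.6 ± 0.565 against 18.4 ± 0.511 FPKM, SD, n = 3 each), a change of -0.23 (SE 0.071).

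Gata1 (ENSMUSG00000031162, 7959260 to 7978071, minus strand) lies 364.0 kb beyond Foxp3 and had the lowest ratio of Bach2-cKO to WT of the 9 genes with a value. It read 22.0, 20.3 and 18.5 FPKM in WT, and 1.44, 0.907 and 2.02 FPKM in Bach2-cKO. Every WT library thus held more of it than any Bach2-cKO library, with 964, 626 and 512 reads against 40, 29 and 56. WT averaged 20.2 ± 1.74 FPKM and Bach2-cKO 1.46 ± 0.555 FPKM (SD, n = 3 each), 13.9-fold apart, and the change of -3.13 (SE 0.17) was at rank 3 from the most negative of the 13766 genes. Its exons overlap no other gene. In WT its level was not far from that of Hdac6, and 56.4% of the tested genes lay below it.

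**Figure D2:**
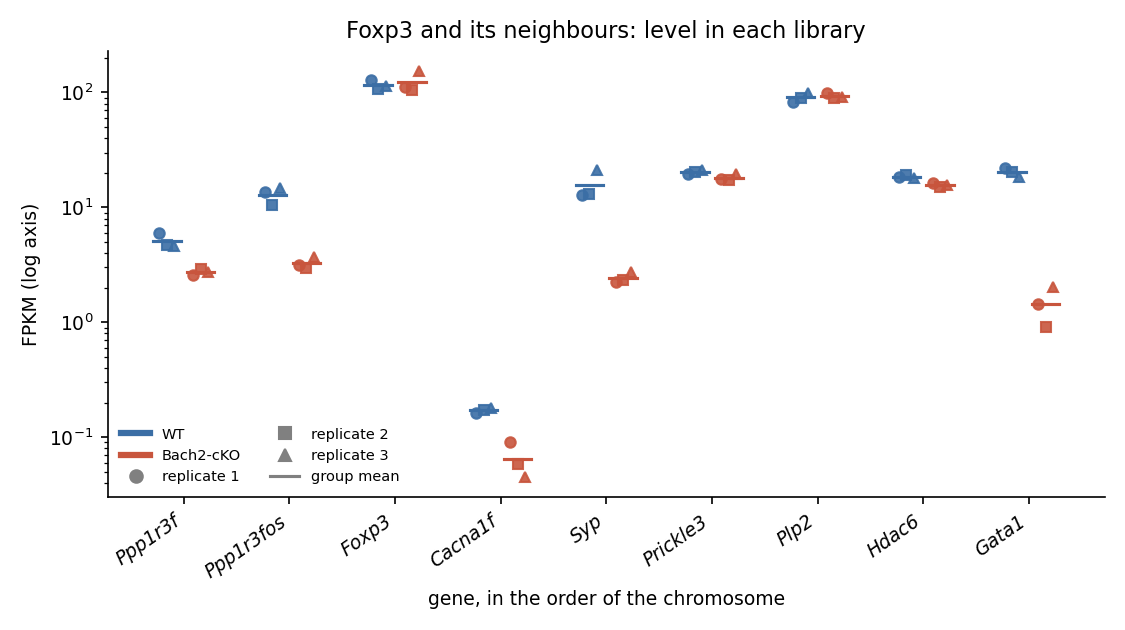
Level of each gene in each library (FPKM, log axis), with genes in chromosomal order, WT in blue, Bach2-cKO in red, replicates by symbol and group means as lines. Foxp3 and Plp2 overlap between the groups, while Gata1 reads 18.5 to 22.0 FPKM in WT and 0.907 to 2.02 FPKM in Bach2-cKO. Ccdc22, at 0 throughout, is not drawn.

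Of the 8 genes that passed the filter, 6 had all WT values above all Bach2-cKO values and 2 overlapped. Over all tested genes, the WT values lay wholly above in 20.1%, wholly below in 15.5% and without overlap either way in 35.6%. A change of -1 or below was seen in 3 of the 8 (Gata1, Syp and Ppp1r3fos), against 1.5% of all tested genes. As the genes were chosen on this comparison, nothing is read from these counts. In the order of the chromosome the changes alternated in size: -0.71 for Ppp1r3f, -1.69 for Ppp1r3fos, 0.07 for Foxp3, -2.25 for Syp, -0.17 for Prickle3, 0.04 for Plp2, -0.23 for Hdac6 and -3.13 for Gata1.

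**Figure D3:**
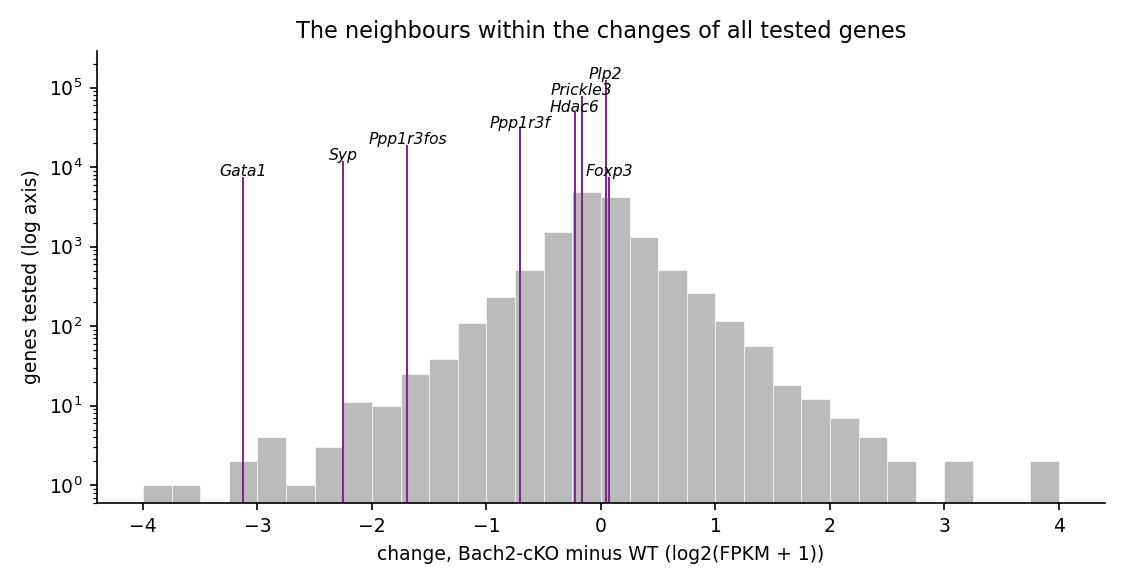
Histogram of the change between the groups over the 13766 tested genes (log2(FPKM + 1), Bach2-cKO minus WT, counts on a log axis), with a line at each of the 8 genes that passed the filter. Gata1, Syp and Ppp1r3fos lie in the far left tail, and Foxp3, Plp2, Prickle3 and Hdac6 lie within the central bars.

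Reads of each neighbour per 100 Foxp3 reads of the same library compare the genes without the library total. Gata1 gave 4.66, 5.08 and 4.41 reads per 100 Foxp3 reads in WT, and 0.349, 0.235 and 0.354 in Bach2-cKO. Syp gave 3.22, 3.9 and 6.11 against 0.645, 0.720 and 0.576, and Ppp1r3fos 2.96, 2.69 and 3.58 against 0.784, 0.785 and 0.665. On this scale, too, these 3 genes had no overlap between the groups. Ppp1r3f gave 2.46, 2.30 and 2.13 against 1.21, 1.44 and 0.924, likewise without overlap. Prickle3 gave 7.82, 9.54 and 9.51 against 7.90, 8.45 and 6.38, and Hdac6 8.35, 10.2 and 9.23 against 8.39, 8.37 and 5.92. Both now overlapped, with their lowest ratio in Bach2-cKO replicate 3, the library with the most Foxp3.

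**Figure D4:**
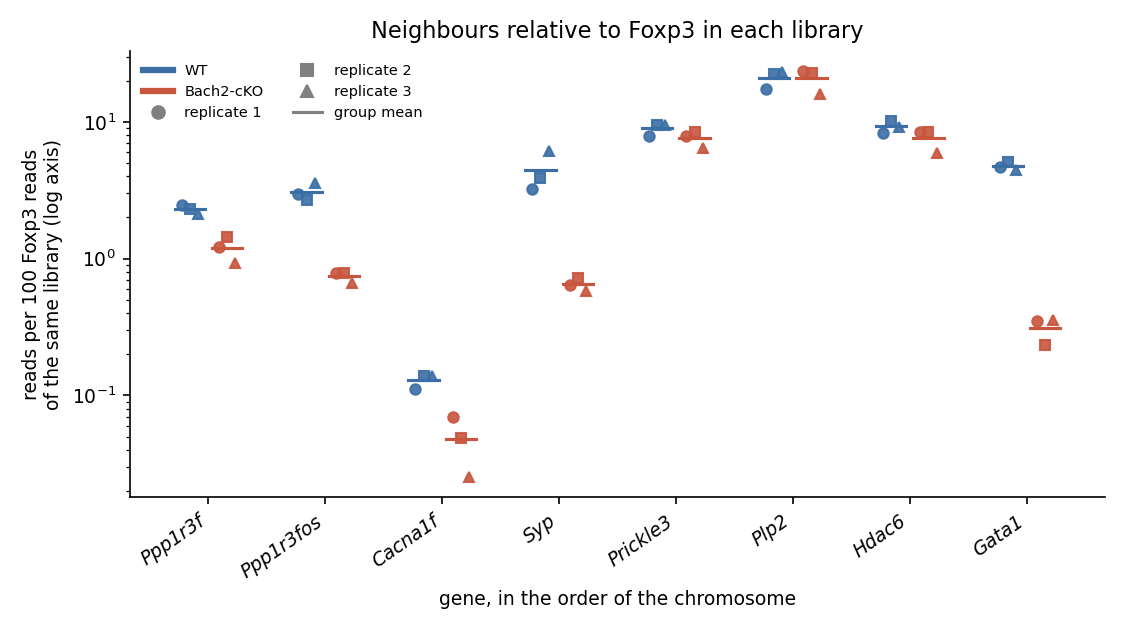
Reads of each neighbour per 100 Foxp3 reads of the same library (log axis), in chromosomal order, with WT in blue, Bach2-cKO in red, replicates by symbol and group means as lines. Ppp1r3f, Ppp1r3fos, Cacna1f, Syp and Gata1 keep WT above Bach2-cKO, while Prickle3, Plp2 and Hdac6 overlap.

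By group means, the length used changed the WT order only of Gata1 with Prickle3 and of Ppp1r3fos with Syp. In Bach2-cKO it changed the order of Gata1 with Syp and of Ppp1r3fos with Ppp1r3f. The deposited FPKM divide by the mean transcript length of GENCODE M21 for all genes here with a value except Foxp3 and Ppp1r3fos. The deposited positions of Foxp3 and Ppp1r3fos also differ from M21, so their reads may have been counted on other exons. Their place in the order below is therefore less certain. Per kilobase of all exon bases, the WT means were 93.9 ± 8.21 for Foxp3, 67.0 ± 5.93 for Plp2, 8.30 ± 0.714 for Gata1, 7.81 ± 0.311 for Prickle3, 6.82 ± 0.189 for Hdac6, 3.69 ± 0.625 for Ppp1r3fos, 3.61 ± 1.14 for Syp, 1.92 ± 0.290 for Ppp1r3f and 0.0606 ± 0.00295 for Cacna1f (SD, n = 3 each). In this order Gata1 and Prickle3, and Ppp1r3fos and Syp, are neighbours that do not differ beyond their spread. In Bach2-cKO, Gata1 stood at 0.597 ± 0.228 and Syp at 0.558 ± 0.0618, again within their spread and now below Ppp1r3f at 1.02 ± 0.0534.

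Genes around Foxp3 that were not among the 10 show the rest of the region. Within 500 kb of Foxp3, 48 other genes are in the table, 14 of them at 0 throughout, and 18 were tested. By limma with Benjamini-Hochberg adjustment at 0.05, 1 rose, 1 fell and 16 did not pass, with a median change of -0.016 against -0.017 over all tested genes. The share called over all tested genes was 15.3%, with 8.31% lower and 7.02% higher. On the X chromosome outside 1 Mb of Foxp3, where none of the 10 genes lie, 16 of 387 tested genes rose and 32 fell (12.4%).

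The neighbour that rose was Clcn5 (7153810 to 7319358), a chloride and proton exchanger of endosomes, 260.3 kb before Foxp3. It read 7.81, 7.15 and 8.08 FPKM in WT, and 16.9, 19.1 and 16.7 FPKM in Bach2-cKO, with no overlap. Its mean rose from 7.68 ± 0.483 to 17.6 ± 1.34 FPKM (SD, n = 3 each; change 1.10, SE 0.092, limma adjusted p = 0.000589). The neighbour that fell was Wdr45 (7714333 to 7728206), an autophagy gene 119.1 kb beyond Foxp3, from 29.8 ± 2.71 to 22.9 ± 2.13 FPKM (change -0.37, SE 0.096, limma adjusted p = 0.0425). The libraries read 31.5, 31.2 and 26.7 FPKM in WT and 20.9, 22.6 and 25.2 FPKM in Bach2-cKO. Leaving out WT replicate 1 ended this call (limma adjusted p = 0.142), as did leaving out WT replicate 2 (0.123), the first Bach2-cKO library (0.128) or the second (0.123). It was also lost with median-ratio scaling (0.0505) or no filter (0.104). Over all alternatives its adjusted p ranged from 0.0251 to 0.142, and that of Clcn5 from 6.83e-05 to 0.00633.

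Between Plp2 and Hdac6 the table holds 21 genes, 12 of them tested, with changes from -0.37 (Wdr45) to 0.05. None of these 12 had a change near that of Syp or Gata1. Before the window, 2010204K13Rik (ending at 7445143) read 3.55 ± 0.558 FPKM in WT and 1.91 ± 1.02 FPKM in Bach2-cKO (SD, n = 3 each), overlapped between the groups and did not pass (change -0.70, SE 0.25, limma adjusted p = 0.102). Without Bach2-cKO replicate 1 it did (change -0.96, limma adjusted p = 0.0262). Beyond the window, Suv39h1, a histone methyltransferase, read 14.8 ± 0.555 and 15.4 ± 2.76 FPKM (change 0.04).

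**Figure D5:**
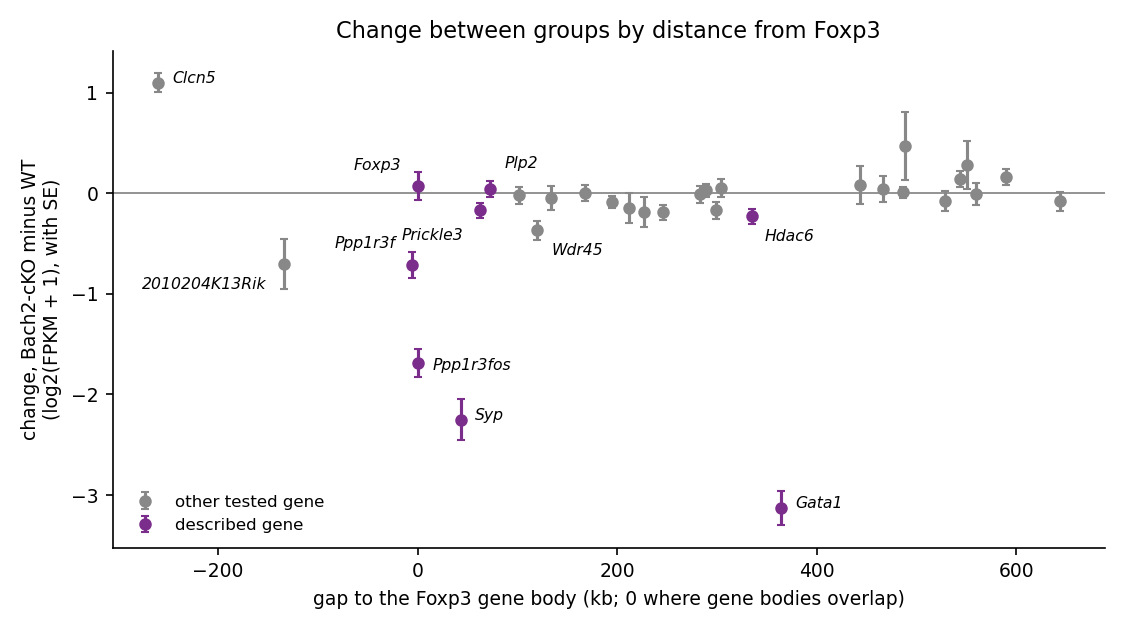
Change between the groups (log2(FPKM + 1), Bach2-cKO minus WT, bars are SE) against the gap to the Foxp3 gene body in kb, for the 8 described genes that passed the filter (purple) and the other tested genes (grey). Syp at 43.2 kb and Gata1 at 364.0 kb lie far below the genes between them, which run from -0.37 to 0.05.

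Factors known to act on Foxp3 or with its protein moved in both directions. Of 53 such genes 52 were tested, of which 7 rose, 10 fell and 35 did not pass, with a median change of -0.043. Over all tested genes, 7.02% were higher and 8.31% lower. Nfatc1, an NFAT factor of antigen receptor signalling, rose from 44.5 ± 1.51 to 60.8 ± 1.23 FPKM (change 0.44, limma adjusted p = 0.00279). Ets1, which binds the Foxp3 promoter region and enhancers, fell from 600.0 ± 15.8 to 433.8 ± 23.0 FPKM (change -0.47, limma adjusted p = 0.00377). Id3, an inhibitor of E proteins, fell from 71.4 ± 17.4 to 26.2 ± 6.53 FPKM (change -1.41, limma adjusted p = 0.00449), and the orphan nuclear receptor gene Nr4a3 from 58.7 ± 3.14 to 39.9 ± 3.84 FPKM (change -0.55, limma adjusted p = 0.0056; SD, n = 3 each).

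The other genes of this list that rose were Runx1, Gata3, Ikzf3, Hif1a, Ezh2 and Id2, and those that fell were Stat5b, Rela, Nr4a1, Nr4a2, Ikzf4, Bcl11b and Usp21. With median-ratio scaling the split was 9 higher and 8 lower. The counts of higher and lower genes became 1 and 4 on leaving out WT replicate 1, and 3 and 7 on leaving out WT replicate 2. They became 1 and 5 if Bach2-cKO replicate 1 was left out, and 3 and 4 if Bach2-cKO replicate 2 was. Of the 17 genes called, 5 (Nfatc1, Ets1, Id3, Nr4a2 and Nr4a3) passed in all 13 alternative fits, so the other 12 calls depend on the setting.

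Relatives of the neighbours, from the same protein family or complex, were examined in the same way. Of 80 such genes 78 are in the table and 51 were tested, of which 5 rose, 5 fell and 41 did not pass, with a median change of -0.127. These 10 calls are a share near the 15.3% called over all tested genes. Of them, Sypl and Cacna2d4 passed in every alternative fit. Sypl, a synaptophysin-like membrane protein, rose from 32.8 ± 4.39 to 66.2 ± 10.1 FPKM (change 0.99, limma adjusted p = 0.00323), where Syp read lower in Bach2-cKO. Gata3, the GATA factor of T cells, rose from 94.6 ± 9.86 to 118.7 ± 6.99 FPKM (change 0.33, limma adjusted p = 0.0435), where Gata1 read lower. It passed in 5 of 13 alternative fits, with limma adjusted p from 0.0219 to 0.115. The call was lost on leaving out WT replicate 1 (0.102) or 2 (0.0942) or any 1 Bach2-cKO library (0.0847, 0.101 and 0.083), and with quantile normalization (0.0572) or no filter (0.115).

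Calcium channel relatives of Cacna1f went both ways. Cacna2d4, an auxiliary subunit, fell from 10.9 ± 1.27 to 4.88 ± 1.19 FPKM (change -1.03, limma adjusted p = 0.00563), and Cacna1i, a low-voltage channel, rose from 3.56 ± 0.745 to 6.70 ± 0.762 FPKM (change 0.76, limma adjusted p = 0.0137; SD, n = 3 each). Prickle1 fell from 2.68 ± 0.113 to 1.10 ± 0.246 FPKM (change -0.82, limma adjusted p = 0.0108). The other relatives that rose were Cacna1e and Syngr2, and those that fell were Pygm, Vangl2 and Celsr2, while Ppp1r3a and Gata5 are listed at 0 throughout. Cacna1i did not pass without WT replicate 1 or without Bach2-cKO replicate 2 (limma adjusted p = 0.0588 in each), nor Prickle1 without WT replicate 1 (0.0504). With no filter neither Cacna1i nor Prickle1 passed (limma adjusted p = 0.0593 and 0.0522). The counts of higher and lower relatives became 2 and 1 on leaving out WT replicate 1, and 3 and 2 on leaving out WT replicate 2. They became 4 and 3 if Bach2-cKO replicate 1 was left out, and 1 and 2 if Bach2-cKO replicate 2 was.

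Markers of the cells in which GATA1 is best known were compared beside its level. The list of erythroid, megakaryocyte, mast cell and basophil genes also holds Epx and Prg2, known from eosinophils and both below the filter. Of its 27 genes 11 were tested, 1 fell and 10 did not pass, against 8.31% lower over all tested genes. At an unadjusted p under 0.05, 3 were lower, limma-voom called 2 lower, and without Bach2-cKO replicate 1 there was 1 that rose. The summed level of all 27 was 213.8 to 567.7 FPKM in WT and 241.2 to 1090.7 FPKM in Bach2-cKO. Most of this was globin, with Hbb-bs at 180.9 ± 98.1 and 366.8 ± 227.9 FPKM (SD, n = 3 each), so the sum says little of the other genes. The one that fell, named after its values were seen, was Itga2b, the platelet integrin alpha chain, from 6.78 ± 0.826 to 3.08 ± 0.103 FPKM (change -0.93, limma adjusted p = 0.00279). Gata2, the factor of early progenitors and mast cells, stood at 0.0124 ± 0.0215 and 0.0955 ± 0.0854 FPKM. Gp1ba, a platelet receptor chain, read 1.39 ± 0.351 and 0.637 ± 0.111 FPKM, and Ermap, an erythroid membrane protein, 1.83 ± 0.485 and 0.997 ± 0.283 FPKM, neither past the threshold. Cpa3 was also lower on average (1.5 and 1.18 FPKM). Alas2 was higher on average in Bach2-cKO (5.84 and 9.94 FPKM), as were Slc4a1 (8.52 and 13.9) and Kit (21.6 and 27.4), and none of these passed. The median change of the 11 tested genes, globins included, was 0.567. No gene of this list was at 0 in all libraries. The part of such cells in the level of Gata1 was not tested.

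Genes of B cells and of CD8 T and NK cells rose in Bach2-cKO, where 7.02% of all tested genes were higher and 8.31% lower. Of 20 B cell and plasma cell genes, 12 rose and 8 did not pass, and their summed level was 4753.3 to 5826.1 FPKM in WT and 8110.0 to 11131.9 FPKM in Bach2-cKO. With no filter on low values, 6 rose. Of 8 CD8 T cell and NK cell genes 6 were tested and 4 rose, with sums of 65.6 to 77.3 and 107.7 to 172.3 FPKM, and 2 rose with no filter or on leaving out WT replicate 1, 2 or 3 or Bach2-cKO replicate 2. Of 12 myeloid genes 6 were tested and none passed by limma, with 1 at an unadjusted p under 0.05, and sums of 382.4 to 517.0 and 387.0 to 450.2 FPKM. Most of these sums was Cst3 (means of 401.9 and 367.0 FPKM), so they say little of the other genes. Cst3 and Tyrobp had lower means in Bach2-cKO, and Lyz2, S100a8, S100a9 and Itgax higher ones. The median change of the 6 tested was 0.715. On leaving out WT replicate 1, 1 of the myeloid genes rose, and on leaving out Bach2-cKO replicate 1, 3 did. Limma-voom on recovered reads called none of them.

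All 13 Treg and T cell markers other than Foxp3 were present, with sums of 3196.3 to 3711.7 FPKM in WT and 3122.1 to 3636.4 FPKM in Bach2-cKO. Il2ra (means of 256.3 and 482.0 FPKM) and Ctla4 (512.5 and 651.5 FPKM) were higher on average in Bach2-cKO. Each of the other markers was lower on average, so the sums say little of them. The median change of the 13 was -0.241, with 2 higher and 7 lower at an unadjusted limma p under 0.05. Il2ra rose, Ikzf4, Lrrc32, Cd3g and Cd5 fell, and 8 did not pass, beside the same shares over all tested genes. The 4 that fell became 1 on leaving out WT replicate 1 or with no filter. They became 2 if Bach2-cKO replicate 1 or 2 was left out, and 7 if Bach2-cKO replicate 3 was. No marker of the 4 lists of other cells was at 0 in all libraries. The part of these cells in the levels of Foxp3 and its neighbours was not tested.

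The genes whose profile over the 6 libraries was nearest to that of Foxp3, among 9286 genes with a mean of at least 5 FPKM, were Ifngr1, Zfhx2, Tbc1d30, Rbm41 and Arfip1. Their Euclidean distances, on log2(FPKM + 1) centred on each gene's mean, were 0.133, 0.144, 0.163, 0.172 and 0.188. In all 5, as in Foxp3, Bach2-cKO replicate 3 was the highest library, which follows from their being picked for a profile near that of Foxp3. Ifngr1, the interferon-gamma receptor chain, read 741.0, 698.1 and 680.8 FPKM in WT and 708.8, 653.6 and 912.2 FPKM in Bach2-cKO.

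Nearest to Gata1 were Nsg2, Arhgap20, Gsta4, Ly6c1 and Ift80, at distances of 0.538, 0.562, 0.874, 1.020 and 1.145, none of them on the X chromosome. Nsg2, a neuronal endosome protein, read 74.5, 75.2 and 70.9 FPKM in WT and 10.9, 8.35 and 10.7 FPKM in Bach2-cKO. Gsta4, a glutathione transferase, read 25.3, 26.7 and 28.3 FPKM in WT and 1.09, 0.691 and 1.26 FPKM in Bach2-cKO. Like Gata1, these genes separated the groups in every library, which follows from their being picked for a profile near its own.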

How the data were processed

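The authors deposited FPKM per gene and library, with 6 libraries in 1 table. Per the submitters' processing notes, HISAT2 2.0.5, featureCounts 1.5.0-p3 and the build mm9 were used. Neither annotation nor strand use is given in the sources used here. Gene positions equal those of GENCODE M21 for 45128 of 49326 identifiers found there (91.5%), so they are given as GRCm38. FPKM steps gave whole reads for all 28530 genes with a value (tolerance 0.001 reads), 24193 of them at the rounded mean transcript length. For the others, the shortest length that gave whole reads in every library with a value was taken. Where few libraries had a value, some length fits in nearly any case, so those reads are less certain.

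The test used log2(FPKM + 1) of genes that reached 1 FPKM in 3 or more libraries, with limma 3.58.1 in R 4.3.3 (intensity trend, two-sided, Benjamini-Hochberg threshold 0.05) and no covariate. The fit was tested on simulated data. Python 3.11.15 and Matplotlib 3.10.9 made the figures. Alternatives were median-ratio scaling, quantile normalization, limma-voom on recovered reads, 2 other filters, a pseudocount of 0.1, a replicate block, leaving out each library, a threshold of 0.01 and windows of 250 kb and 1000 kb.

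The members and all 7 gene lists were chosen with earlier results of these data known. Named were all 10 members, other neighbours within 500 kb that passed, up to 4 genes of smallest p in the lists of regulators and of relatives, and the 5 nearest profiles to Foxp3 and to Gata1. Any other gene was named after its values were seen.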

Additional observations from a re-analysis of the deposited data

How the results depend on the processing

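Over 13 alternatives (12 for Ppp1r3f), the changes of Ppp1r3f, Ppp1r3fos, Syp, Prickle3, Hdac6 and Gata1 kept their sign, with ranges of -0.90 to -0.61, -1.95 to -1.60, -2.60 to -2.02, -0.22 to -0.14, -0.25 to -0.20 and -3.87 to -2.96, while those of Foxp3 (-0.10 to 0.18) and Plp2 (-0.02 to 0.11) crossed 0. With no filter, 501 genes were higher and 681 lower, no neighbour within 500 kb was lower by limma (4 at an unadjusted p under 0.05), 1 regulator was higher and 4 lower, and 1 relative was higher and 1 lower. At an adjusted p under 0.01 these were 341 and 454 genes, 0 lower neighbours, 1 and 3 regulators, and 1 and 1 relatives. Median-ratio scaling left 0 lower neighbours (2 unadjusted), limma-voom gave 11 higher regulators, a mean of at least 5 FPKM gave 1 lower relative, and a 250 kb window held 0 higher neighbours (Clcn5 lies outside it). Leaving out 1 library gave 492 to 1224 higher and 560 to 1375 lower genes, 0 to 1 lower neighbours, 1 to 7 higher and 4 to 13 lower regulators, and 1 to 5 higher and 1 to 5 lower relatives. The cause of these moves was not tested. Depth limits Cacna1f most, at 4 to 23 reads.

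Replicate numbers are shared between the groups in the labels, but same-numbered libraries did not deviate together (correlations over genes of -0.053, 0.006 and -0.215), and no library can be said to be paired. With the replicate block, 625 genes were higher and 657 lower, 0 neighbours were lower (2 unadjusted), 2 regulators were higher, and 2 relatives were higher and 2 lower. Wdr45 (limma adjusted p = 0.115) and Gata3 (0.052) did not pass with it.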
